A study of Mus musculus with 9 samples.

Results

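The genes that write, erase and read DNA methylation were followed in the whole brain of the mouse at embryonic day 14. The members were set by name: the DNA methyltransferases Dnmt1, Dnmt3a and Dnmt3b, the dioxygenases Tet1, Tet2 and Tet3, and the chromatin proteins Uhrf1, Mbd2 and Mbd3. All 9 were found by Ensembl ID among 56748 genes of the count table, and all 9 passed the filter on low counts. RNA sequencing was done on 9 libraries, 3 from embryos exposed to valproic acid, 3 from embryos exposed to poly(I:C) and 3 from saline controls. Valproic acid is an anticonvulsant that inhibits histone deacetylases, poly(I:C) is a synthetic double-stranded RNA that imitates a viral infection, and exposure to either before birth is used to model autism in mice. The design calls the unexposed animals wild type, and no allele, strain, dose, day of exposure, litter or sex is given. Whether libraries came from separate embryos or litters is not stated, so p-values measure only how far these samples scatter, and that scatter may be technical.

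DNA methylation in mammals is the addition of a methyl group to cytosine, mostly where it precedes guanine (CpG). Dnmt3a and Dnmt3b place new marks, and Dnmt1 copies them onto the daughter strand after replication, where Uhrf1 recognises hemimethylated CpG and recruits it. The Tet enzymes oxidise methylcytosine, which starts its removal. Mbd2 binds methylated CpG, Mbd3 in mammals has little affinity for it, and either can form part of the nucleosome remodelling and deacetylase (NuRD) complex, which also holds the histone deacetylases Hdac1 and Hdac2. In the developing brain Dnmt1 and Uhrf1 are known for their high expression in dividing progenitors, and Dnmt3a for its action in neurons.

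Library totals ranged from 15399974 to 19883131 counts. The brain markers were present in every library, with summed levels of 5920 to 6740 CPM (counts scaled to a common library size with TMM factors) for 5 postmitotic neuron genes and 1251 to 1484 CPM for 6 radial glia genes. The 4 pluripotent and germ cell markers summed to at most 1.36 CPM, with 1 of them at 0 throughout the valproic acid and the poly(I:C) libraries. The libraries also differed in sex-linked RNA. All 3 valproic acid libraries and replicate 3 of poly(I:C) held Xist, which coats the inactive X chromosome, at 981 to 1055 CPM, while the remaining 5 held 0.236 CPM or less. Summed Y-linked genes were at 0 in those 4 libraries and in control replicate 3, and at 196 to 201 CPM in the other 4. Exposure to valproic acid and this signal therefore cannot be told apart. Xist parts all valproic acid libraries from all controls, and outside valproic acid only poly(I:C) replicate 3 held it. A fit with Xist as a covariate thus loses precision by design in that comparison, and a call lost there cannot tell the exposure from this signal. Fits with Y-linked expression or with Xist as a covariate, and fits of the 5 libraries without Y-linked counts, are given beside each call. Those 5 are the 3 of valproic acid, 1 of poly(I:C) and 1 control. That control, replicate 3, held neither Y-linked counts nor Xist above 0.0498 CPM, unlike the other libraries of this set. Within the set, valproic acid and control therefore still differ in Xist, and their comparison rests on 1 control.

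The promoters of the members called below, Uhrf1 and Mbd3, are shown as the bases before each annotated start (RefSeq, GRCm38.p6). Bases inside exons of the gene annotated in GENCODE M21 are left out. Upper case marks words of 8 bases of the E2F family, the factors that switch on S phase genes (TTTCCCGC, TTTCGCGC, TTTGCCGC or TTTGGCGC, on either strand, overlaps allowed).
Uhrf1, downstream start, chr17:56304063-56304312, plus strand: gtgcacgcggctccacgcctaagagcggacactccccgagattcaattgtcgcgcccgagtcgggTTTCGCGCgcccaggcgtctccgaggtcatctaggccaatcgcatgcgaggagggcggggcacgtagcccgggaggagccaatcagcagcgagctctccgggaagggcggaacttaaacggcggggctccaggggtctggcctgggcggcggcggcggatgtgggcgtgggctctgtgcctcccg
Uhrf1, upstream start, chr17:56303087-56303320, plus strand: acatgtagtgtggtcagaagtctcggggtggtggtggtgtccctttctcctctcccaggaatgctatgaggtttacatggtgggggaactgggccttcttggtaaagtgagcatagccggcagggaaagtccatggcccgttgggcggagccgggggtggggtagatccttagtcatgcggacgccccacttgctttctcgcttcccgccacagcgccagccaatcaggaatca
Mbd3, chr10:80399551-80399781, minus strand: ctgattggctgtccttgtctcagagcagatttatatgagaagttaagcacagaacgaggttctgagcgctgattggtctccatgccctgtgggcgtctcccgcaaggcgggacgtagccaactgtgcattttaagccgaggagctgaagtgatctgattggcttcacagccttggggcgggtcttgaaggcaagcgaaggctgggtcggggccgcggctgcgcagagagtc
The downstream Uhrf1 window held 1 word, TTTCGCGC, whose first base lies 185 bases before the start, and the other windows held none. Such a word stood in the 250 bases before a start in 1.86% of 32851 promoter windows, and for 2.16% of 27025 genes in at least 1 of their windows. Promoter entries were matched for 8 of 9 members, of which 2 (Uhrf1 and Dnmt1) had a word in at least 1 window, and for 10 of 12 genes of an S phase and proliferation list, of which 3 (Mcm5, Mcm6 and Mcm7) had a word. Each of the words holds a CpG, and the windows with a word held 30 CpG for Uhrf1 and 26 for Dnmt1, against a median of 6 per window. The shares over all windows and genes were not matched for CpG content or for windows per gene. No enrichment can therefore be read from these counts. The matches are a description of the letters and do not show a binding site. The counts were not split by start site, so no start can be tied to the values below.

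Per length of exon the members differed far more from each other than between groups, and their order by mean was the same in the 3 groups. Mbd3 stood highest, at 127 ± 1.25 CPM per kb under valproic acid, 115 ± 2.18 under poly(I:C) and 113 ± 6.07 in controls (SD, n = 3 each, as for all such values below). Dnmt1 followed with 38.7 ± 1.85, 39.0 ± 1.28 and 36.6 ± 2.17 CPM per kb under valproic acid, under poly(I:C) and in controls. Then came Uhrf1, with 29.4 ± 0.967 under valproic acid, 26.8 ± 1.56 under poly(I:C) and 23.9 ± 0.668 in controls. Tet3 and Dnmt3a were near 15, at 16.0 ± 0.638 and 14.6 ± 0.369 CPM per kb under valproic acid and 15.2 ± 0.534 and 13.8 ± 0.214 in controls. Mbd2 was at 7.93 ± 0.872 under valproic acid and 8.74 ± 0.132 in controls, Tet1 at 3.83 ± 0.454 and 3.51 ± 0.0721, and Tet2 at 3.55 ± 0.0686 and 3.34 ± 0.0302. Dnmt3b was lowest, at 1.41 ± 0.0676, 1.18 ± 0.0935 and 1.22 ± 0.0850 CPM per kb in the same order of 3 groups. Tet1 and Tet2 were neighbours whose ranges overlapped under valproic acid (3.47 to 4.34 and 3.47 to 3.60) and under poly(I:C), but not in controls (3.43 to 3.57 and 3.30 to 3.36). The lengths are unions of all annotated exons in GENCODE M21, 1987 bases for Mbd3 and 16870 for Tet2, and overstate the length of genes with many isoforms, so small gaps between genes are not firm.

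**Figure D1:**
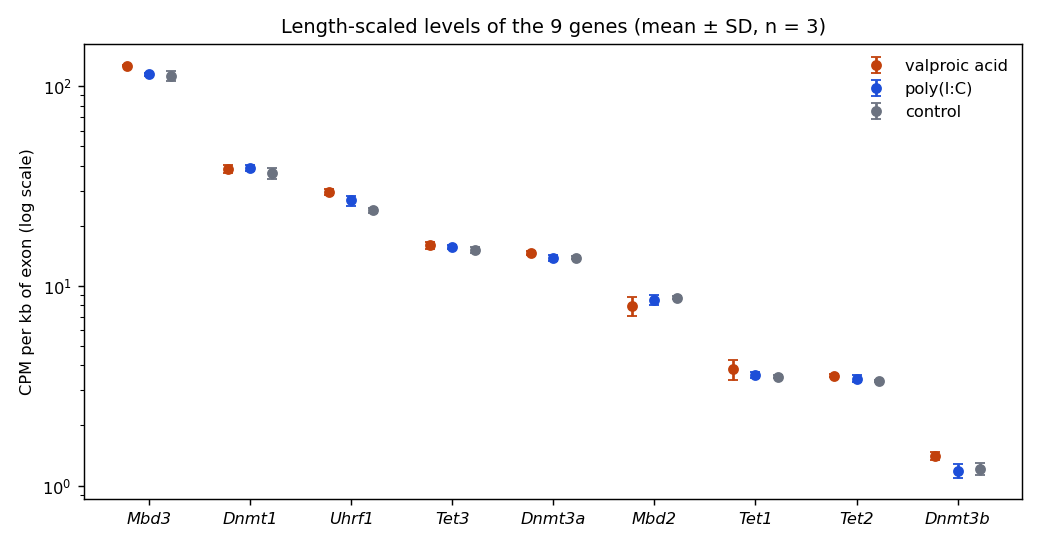
Length-scaled level of each gene (CPM per kb of exon, log axis) as mean ± SD of 3 libraries, with valproic acid, poly(I:C) and control side by side and genes ordered by the control mean. Mbd3 lies above 100 CPM per kb and Dnmt3b near 1, and the distance between genes is far larger than that between groups.

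Under valproic acid, compared with controls, Uhrf1 and Mbd3 rose and the other 7 members gave no call. Uhrf1 was at 121, 129 and 126 CPM in the valproic acid libraries, against 98.5, 103 and 104 CPM in controls. Every valproic acid library lay above every control, and the fitted rise was 1.23-fold (log2 0.30, SE 0.0489, edgeR adjusted p = 0.0030). Mbd3 was at 255, 251 and 251 CPM under valproic acid, against 210.3, 234 and 227 CPM in controls. The groups did not overlap, and the fitted rise was 1.13-fold (log2 0.17, SE 0.0406, edgeR adjusted p = 0.022). With 2 of 9 members higher and 0 lower, the share can be set beside the 3.57% of 17171 tested genes that were higher and the 2.78% that were lower (6.35% in either direction). The same 2 passed an unadjusted p of 0.05, beside 22.1% of all tested genes.

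The call of Uhrf1 held in all 6 fits that left out 1 library (log2 0.28 to 0.33) and with Y-linked expression as a covariate (0.27, edgeR adjusted p = 0.047). It was lost with Xist as a covariate (0.25, adjusted p = 0.41), where the SE widened from 0.0489 to 0.0929. The call was also lost among the 5 libraries without Y-linked counts, where control replicate 3 stood alone (log2 0.27, SE 0.0718). Mbd3 was less firmly called. Leaving out control replicate 1 gave an adjusted p of 0.097, and leaving out replicate 1 or replicate 3 of valproic acid gave 0.058 or 0.053. With Y-linked expression as a covariate it was 0.12, with Xist 0.45 and among the libraries without Y-linked counts 0.37. The log2 value of Mbd3 lay between 0.13 and 0.21 over the 6 fits that left out 1 library, and at 0.15 among the libraries without Y-linked counts.

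The methyltransferases themselves were not called. Dnmt1, the maintenance enzyme, was at 271, 298 and 287 CPM under valproic acid, against 259, 288 and 263 CPM in controls, so the groups overlapped (log2 0.08, 95% interval -0.02 to 0.18). Uhrf1 therefore stood higher relative to Dnmt1, at 0.434 to 0.447 of its CPM under valproic acid and 0.356 to 0.395 in controls, a ratio not tested. Dnmt3a was at 238, 249.6 and 239.9 CPM under valproic acid, against 232, 226 and 232 CPM in controls. Its groups did not overlap, but the difference was small (log2 0.08, -0.00 to 0.16, edgeR adjusted p = 0.25). Dnmt3b, which dominates in the early embryo, was at 7.47, 7.29 and 6.80 CPM under valproic acid, against 6.26, 5.75 and 6.62 CPM in controls. These libraries also parted by group, at a level where counting error is wide (log2 0.21, -0.07 to 0.49, adjusted p = 0.37).

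The Tet genes all had fitted values slightly above 0 and none was called. Tet1 was at 53.6, 67.0 and 56.8 CPM under valproic acid, against 53.0, 55.1 and 54.7 CPM in controls. The mean difference leaned on valproic acid replicate 2, since log2 0.12 (-0.03 to 0.27) became 0.02 without it. Tet2 was at 58.6, 60.4 and 60.7 CPM under valproic acid, against 55.7, 56.6 and 56.6 CPM in controls, with no overlap (log2 0.09, -0.02 to 0.19). Tet3, the highest of the Tet genes per length, was at 255, 273 and 273 CPM under valproic acid, against 244, 262 and 254 CPM in controls (log2 0.08, -0.01 to 0.16). The edgeR adjusted p of the 3 genes lay between 0.29 and 0.32.

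Mbd2 was the only member below 0. It stood at 24.4, 28.7 and 23.4 CPM under valproic acid, against 28.5, 28.0 and 27.7 CPM in controls, and valproic acid replicate 2 lay above all controls (log2 -0.14, -0.31 to 0.04, edgeR adjusted p = 0.35). The ratio of Mbd3 to Mbd2 in CPM was 8.76 to 10.7 under valproic acid, 7.97 to 8.88 under poly(I:C) and 7.37 to 8.33 in controls. It was not tested, and the ranges of the 2 exposures overlap. Of the 9 members, 8 had fitted values above 0, with a median of 0.09, beside 49.1% of all tested genes and a median of -0.00. Groups did not overlap for 5 members (Uhrf1, Mbd3, Dnmt3a, Dnmt3b and Tet2), each higher under valproic acid. Groups did not overlap for 25.6% of all tested genes, 12.6% in that direction.

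**Figure D2:**
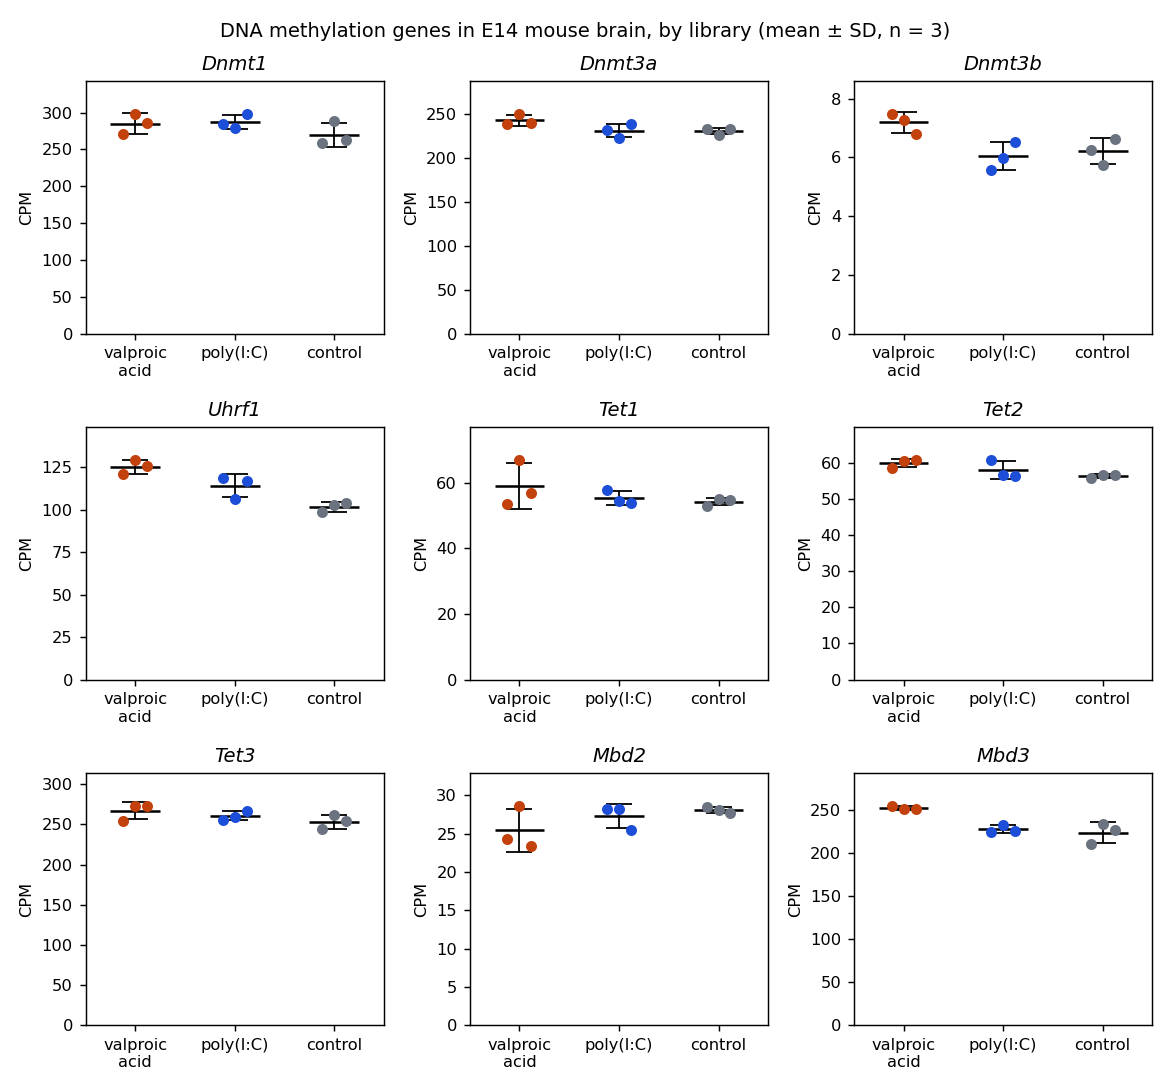
CPM of each of the 9 genes in every library (points), with the mean and SD of 3 libraries (bars), for valproic acid, poly(I:C) and control, on axes that start at 0. Uhrf1 steps down over the 3 groups, and the 3 valproic acid libraries of Mbd3 stand above the other 6. None of the remaining genes was called by edgeR. Among them the means of Dnmt3b were 7.19, 6.04 and 6.21 CPM and those of Mbd2 25.5, 27.3 and 28.1 CPM, in that order of groups.

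Under poly(I:C), compared with the same controls, 0 of 9 members were called by edgeR and 0 by DESeq2, with 1 (Uhrf1) at an unadjusted p under 0.05. Few genes were called at all in this comparison, 0.536% of those tested (0.262% higher), while 12% passed the unadjusted threshold. Uhrf1 was at 119, 106 and 117 CPM under poly(I:C), against 98.5, 103 and 104 CPM in controls. All poly(I:C) libraries lay above the controls, replicate 2 by a narrow margin (1.12-fold, log2 0.17, SE 0.0489, 95% interval 0.06 to 0.27, edgeR adjusted p = 0.18). Among the 4 libraries with Y-linked counts, 2 per group, its log2 value was 0.16 (SE 0.0668, adjusted p = 0.49). The libraries without them leave 1 of each group, too few for a comparison of the conditions. Uhrf1 was the single member whose groups did not overlap, beside 18.4% of all tested genes in either direction and 9.6% with poly(I:C) higher.

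Mbd3 was at 225, 233 and 226 CPM under poly(I:C), inside the control range of 210.3 to 234 CPM (log2 0.03, -0.06 to 0.11). Dnmt1 was at 285, 279.7 and 298 CPM under poly(I:C), against 259, 288 and 263 CPM in controls (log2 0.09, -0.01 to 0.19, edgeR adjusted p = 0.49). The intervals of Dnmt3a (-0.08 to 0.08), Tet2 (-0.06 to 0.14), Tet3 (-0.04 to 0.13) and Tet1 (-0.12 to 0.18) all lay within 0.18 of 0 on the log2 scale. Dnmt3b (-0.32 to 0.24) and Mbd2 (-0.21 to 0.13) were measured less closely. The median over the 9 members was 0.03, beside -0.00 over all tested genes.

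Valproic acid was also compared with poly(I:C) directly, which asks whether the exposures differ. The means compared are those of the 6 exposed libraries, while the controls still enter the scaling and the estimate of spread in the fit over all 9. In a fit of the 6 exposed libraries alone Mbd3 was called (adjusted p = 0.047). Its edgeR adjusted p was 0.12 to 0.19 in the 6 fits without 1 library. With Y-linked expression as a covariate it was 0.30 (log2 0.14), and with Xist 0.38 (log2 0.16). Among the libraries without Y-linked counts, 1 of them from poly(I:C), the log2 value of Mbd3 was 0.16. No member was called by edgeR (0 of 9, beside 2.59% of all tested genes, 1.42% higher under valproic acid), 2 passed an unadjusted p of 0.05, beside 16.6% of all tested genes, and DESeq2 called 1. That gene was Mbd3, at 255, 251 and 251 CPM under valproic acid and 225, 233 and 226 CPM under poly(I:C) (1.11-fold, log2 0.15, SE 0.0406, edgeR adjusted p = 0.074, DESeq2 adjusted p = 0.026). Uhrf1 was higher in each valproic acid library than in any poly(I:C) library (log2 0.14, 0.03 to 0.24, edgeR adjusted p = 0.16), so its rise under valproic acid is not shown to differ from its value under poly(I:C). Dnmt3b was at 7.47, 7.29 and 6.80 CPM under valproic acid and 5.59, 5.99 and 6.54 CPM under poly(I:C), without overlap (log2 0.25, -0.02 to 0.53). These 3 members were the ones whose groups did not overlap, each higher under valproic acid, beside 21.9% of all tested genes, 10.5% in that direction. Dnmt1 was close in both (log2 -0.01, -0.11 to 0.09).

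**Figure D3:**
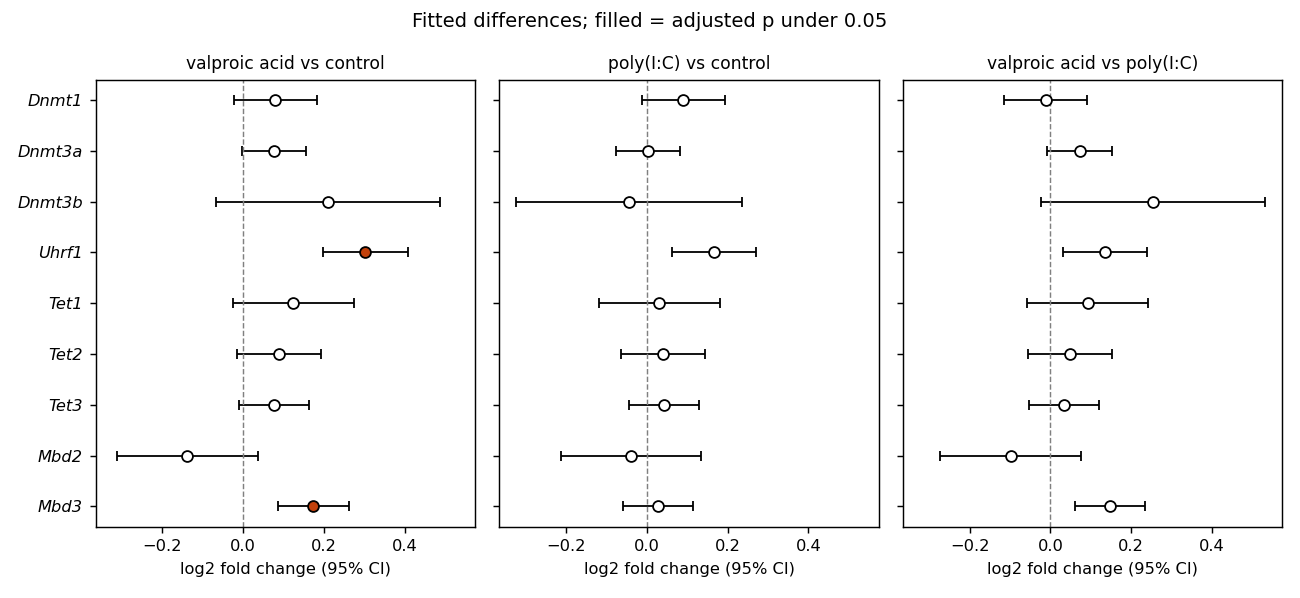
Fitted log2 fold change of each gene with its 95% interval in the 3 comparisons, first-named group over second, on a shared axis. Filled points (Uhrf1 and Mbd3, valproic acid against control) have an edgeR adjusted p under 0.05, and the interval of Uhrf1 lies above 0 in all 3 panels.

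Uhrf1 is an S phase gene, so its values were read beside 12 S phase and proliferation genes. Under valproic acid 7 of the 12 rose and 0 fell (median log2 0.17), beside 3.57% and 2.78% of all tested genes. In the fits without 1 library 2 to 6 were called. With Y-linked expression or Xist as a covariate, and among the libraries without Y-linked counts, edgeR called 0 of the 12. The replicative helicase subunits Mcm3 (1.22-fold, SE 0.0476 on the log2 scale, edgeR adjusted p = 0.0031), Mcm5 (1.22-fold, SE 0.0548, 0.0078) and Mcm7 (1.17-fold, SE 0.0505, 0.016) were among them, as was the proliferation marker Mki67 (1.26-fold, SE 0.0743, 0.017). None of the 6 fits without 1 library ended the calls of Mcm3 and Mcm5. Leaving out replicate 1 of the controls ended those of Mcm7 (0.053) and Mki67 (0.059), as did leaving out replicate 2 of valproic acid (0.052 for both), and Mki67 was also lost without replicate 2 of the controls (0.054). The other 3 called genes were the helicase subunits Mcm2 and Mcm6, each kept in 1 of the 6 fits without 1 library, and the cyclin Ccnd1, kept in 3. With Y-linked expression as a covariate the log2 values were 0.24 for Mcm3 (adjusted p = 0.053), 0.28 for Mcm5 (0.066), 0.21 for Mcm7 (0.12) and 0.25 for Mki67 (0.17). With Xist they were 0.21, 0.32, 0.18 and 0.11 in the same order (adjusted p from 0.34 to 0.83), and among the libraries without Y-linked counts 0.25, 0.25, 0.22 and 0.31 (adjusted p from 0.28 to 0.33). Under poly(I:C) 0 of the 12 were called by edgeR or DESeq2 (median 0.08). An unadjusted p of 0.05 was passed by 1, beside 12% of all tested genes. Against poly(I:C), 1 was higher under valproic acid, beside 1.42% of all tested genes. It was Mcm5 (log2 0.23, edgeR adjusted p = 0.043), a call kept in 1 of the 6 fits without 1 library (up to 0.18 in the others). That call was lost with Y-linked expression (0.23) or Xist (0.33) as a covariate and among the libraries without Y-linked counts. The list summed to 1389 to 1537 CPM under valproic acid, 1263 to 1356 CPM under poly(I:C) and 1243 to 1284 CPM in controls. Per 100 CPM of that sum Uhrf1 was at 8.71 ± 0.316 CPM under valproic acid, 8.61 ± 0.179 under poly(I:C) and 8.08 ± 0.160 in controls. The lowest exposed library, at 8.42, stood above the highest control, at 8.24. This ratio was not tested and depends on which genes are summed. Beside a rise of 1.23-fold (log2 0.30) for Uhrf1 under valproic acid, Mcm3 and Mcm5 rose 1.22-fold and the list median was log2 0.17.

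**Figure D4:**
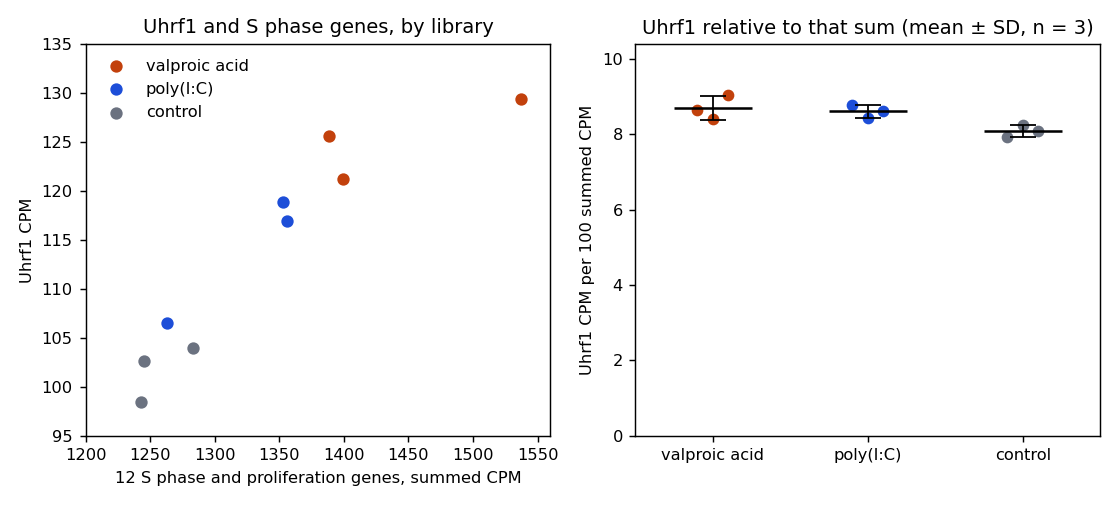
Left, Uhrf1 CPM against the summed CPM of 12 S phase and proliferation genes, a point per library (axes do not start at 0). Right, Uhrf1 per 100 CPM of that sum, with mean ± SD of 3 libraries, on an axis from 0. The 3 valproic acid libraries have the highest sums and the highest Uhrf1, and the ratio lies between 7.92 and 9.05 in all 9.

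Summed markers of some cell types differed between groups as well, while those of others overlapped. Radial glia genes summed to 1443 to 1484 CPM under valproic acid, 1309.8 to 1386 under poly(I:C) and 1251 to 1309.6 in controls, and 4 intermediate progenitor genes to 577 to 620, 469 to 499 and 434 to 462 CPM in those groups. The 5 neuron genes summed to 5920 to 6302 CPM under valproic acid, 6402 to 6740 under poly(I:C) and 6438 to 6624 in controls. Among the blood and vessel markers, 6 erythroid genes summed to 2114 to 2425 CPM under valproic acid, 1278 to 1866 under poly(I:C) and 1641 to 1901 in controls, 5 microglia genes to 52.3 to 59.6, 59.1 to 64.4 and 65.7 to 72.9 CPM, and 4 endothelial genes to 235 to 264, 222 to 240.2 and 233 to 244 CPM. Meninges and fibroblast genes summed to 474 to 603 CPM under valproic acid, 409 to 436 under poly(I:C) and 471 to 497 in controls. In control replicate 3, the control without Y-linked counts, radial glia genes summed to 1309.6 CPM, intermediate progenitor genes to 462 CPM and neuron genes to 6472 CPM. None of the genes of these 7 lists was at 0 throughout a group, and their part in the values of Uhrf1 and Mbd3 was not tested. In RNA from whole brain, more cells of a type and more RNA per cell cannot be told apart.

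The NuRD complex, in which Mbd3 or Mbd2 is a subunit, had 2 of 13 genes higher and 0 lower under valproic acid (median log2 0.06). Of all tested genes 3.57% were higher and 2.78% lower. The 2 NuRD genes were Chd3 and Chd4, 2 of the 3 remodelling ATPases on the list. Chd4 was at 634, 716 and 666 CPM under valproic acid, against 558, 579 and 558 CPM in controls (1.19-fold, log2 0.25, SE 0.0411, edgeR adjusted p = 0.0033), a call kept in all 6 fits without 1 library and with Y-linked expression as a covariate (log2 0.26, adjusted p = 0.026). It was lost with Xist as a covariate (0.25, adjusted p = 0.31) and among the libraries without Y-linked counts (0.27, adjusted p = 0.19). Chd3 was at 1221, 1319 and 1272 CPM under valproic acid, against 1089, 1181 and 1084 CPM in controls (1.14-fold, SE 0.0413 on the log2 scale, adjusted p = 0.018), a call lost without control replicate 1 (0.082) or control replicate 3 (0.073). For Chd3 the log2 value was 0.18 with Y-linked expression (adjusted p = 0.11), 0.10 with Xist (0.73) and 0.23 among the libraries without Y-linked counts (0.17). Either gene parted from controls without overlap. Chd5, a paralog known mainly from neurons, was at 160.1, 161 and 170.7 CPM under valproic acid, against 181, 188 and 170.8 CPM in controls. It parted the other way by the narrowest margin and was not called (log2 -0.13, SE 0.0451, adjusted p = 0.096), nor against poly(I:C) (log2 -0.17, adjusted p = 0.059). Chd5 was named after its values were seen. Mbd3 per 100 CPM of the summed NuRD genes was at 6.58 ± 0.228 under valproic acid, 6.19 ± 0.193 under poly(I:C) and 6.35 ± 0.218 in controls, ranges that overlap between valproic acid and each other group. Under poly(I:C) Chd4 had a log2 value of 0.13 and Chd3 of 0.09 (edgeR adjusted p = 0.22 and 0.39). There 0 of 13 were called by edgeR or DESeq2 and 4 had an unadjusted p under 0.05, beside 12% of all tested genes. Against poly(I:C), valproic acid gave 0.12 for Chd4 and 0.09 for Chd3, with 0 of 13 called by edgeR and 1 by DESeq2. An unadjusted p under 0.05 was reached by 5, beside 16.6% of all tested genes.

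Among partners and regulators of the writers, 10 of 12 genes passed the filter. Under valproic acid 0 of them fell and 1 rose (median 0.08), beside 3.57% of all tested genes that rose. The gene that rose was Ehmt2, a histone H3 lysine methyltransferase also known as G9a (1.10-fold, SE 0.0384 on the log2 scale, edgeR adjusted p = 0.040). Its call was lost without replicate 1 or 3 of the controls (0.15 and 0.12) and without replicate 1 or 3 of valproic acid, with an adjusted p of at least 0.10 in each. With Y-linked expression as a covariate Ehmt2 had an adjusted p of 0.20, with Xist 0.78 and among the libraries without Y-linked counts 0.34 (log2 0.13, 0.08 and 0.16). Against poly(I:C) the list again held 1 gene that was higher under valproic acid, beside 1.42% of all tested genes. It was Trim28, a corepressor that works with zinc finger proteins such as Zfp57 at imprinted loci. Trim28 was at 576, 582 and 559 CPM under valproic acid and 523, 523 and 521 CPM under poly(I:C) (1.10-fold, adjusted p = 0.043), and each of the 6 fits without 1 library ended that call (0.057 to 0.14). So did Y-linked expression (0.19) or Xist (0.34) as a covariate and the fit of libraries without Y-linked counts (0.55), with log2 values of 0.13 to 0.14. Under poly(I:C) 0 of these genes were called by edgeR or DESeq2, with log2 values of -0.03 for Trim28 and 0.08 for Ehmt2. An unadjusted p of 0.05 was passed by 2 of them, beside 12% of all tested genes. Dnmt3l, the catalytically inactive cofactor of the de novo enzymes in germ cells, and Dppa3, a maternal factor that restrains Uhrf1, had 0 counts in all 9 libraries, which allows up to 0.149 to 0.196 CPM per library (3 counts, counting error only).

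Of 17 Tet partners and base excision repair genes 2 rose under valproic acid and 0 fell (median 0.08), beside 3.57% and 2.78% of all tested genes. Gadd45g, a stress-induced gene linked to demethylation and to neurogenesis, was at 72.0, 72.5 and 78.2 CPM under valproic acid, against 53.5, 62.6 and 60.6 CPM in controls. Its rise of 1.26-fold (log2 0.33, SE 0.0608, edgeR adjusted p = 0.0060) was called in all 6 fits without 1 library, but not with Y-linked expression (log2 0.29, adjusted p = 0.078) or Xist (0.25, 0.50) as a covariate, nor among the libraries without Y-linked counts (0.29, 0.23). Parp1, a sensor of DNA breaks, rose 1.11-fold (SE 0.0365 on the log2 scale, adjusted p = 0.028), a call that held in 1 of the 6 fits without 1 library, that without replicate 1 of valproic acid. Leaving out any of the 3 controls (0.089, 0.066 and 0.070), or replicate 2 (0.071) or 3 (0.088) of valproic acid, ended it. For Parp1 the adjusted p was 0.17 with Y-linked expression, 0.62 with Xist and 0.41 among the libraries without Y-linked counts (log2 0.13, 0.12 and 0.14). Under poly(I:C) 0 were called by edgeR or DESeq2 and 3 passed an unadjusted p of 0.05, beside 12% of all tested genes. Ogt, the glycosyltransferase that binds Tet proteins and lies on chromosome X, had a log2 value of 0.03 there, and Idh1, an isocitrate dehydrogenase whose product is a Tet cosubstrate, -0.03. Valproic acid against poly(I:C) gave -0.02 for Ogt and 0.11 for Idh1 (edgeR adjusted p = 0.10 for Idh1). There 0 of 17 were called by edgeR or DESeq2 and 5 had an unadjusted p under 0.05, beside 16.6% of all tested genes.

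The genes listed as other readers of methylated DNA and as enzymes of the methyl donor gave no call in any comparison by edgeR or DESeq2. The 9 listed readers include Mbd5 and Mbd6, and whether each of the 9 binds methylated DNA was not examined. Of the 9, 3 (Mbd6, Uhrf2 and Zbtb38) passed an unadjusted p of 0.05 under valproic acid (median 0.02), 1 under poly(I:C) and 0 between the exposures. Of all tested genes 22.1%, 12% and 16.6% passed it in these comparisons. Uhrf2, the paralog of Uhrf1, was at 113, 113 and 114 CPM under valproic acid, 115, 104 and 107 CPM under poly(I:C) and 104, 98.2 and 106 CPM in controls. The valproic acid libraries were above the controls (log2 0.14, SE 0.0473, edgeR adjusted p = 0.089). Of 8 genes listed as methyl donor enzymes 0 passed an unadjusted p of 0.05 in any comparison. Mat2a, which makes S-adenosylmethionine, had a log2 value of -0.00 under valproic acid (-0.11 to 0.11) and -0.08 under poly(I:C) (-0.18 to 0.03), and 0.08 between valproic acid and poly(I:C). Ahcyl1, an Ahcy-like gene on that list whose part in making the methyl donor is not shown here, had values of -0.02, -0.01 and -0.01 in these comparisons.

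Germline genes that DNA methylation is known to keep silent in somatic cells were also listed. Methylation itself was not measured in these samples. The values below are low RNA levels, many of them near the detection limit, though Brdt had 49 to 96 counts per library. Of 14 such genes, 4 (Ddx4, Sycp1, Brdt and Tdrd1) passed the filter on low counts, and 3 (Tex19.1, Asz1 and Hormad1) had 0 counts in all 9 libraries. The list summed to 5.19 to 7.92 CPM under valproic acid, 7.48 to 11.0 under poly(I:C) and 9.95 to 11.1 in controls, so none of the valproic acid libraries reached the control range. Under valproic acid 0 of the 4 genes that passed rose and 1 fell, beside 3.57% and 2.78% of all tested genes. Tdrd1, a germ cell gene of the piRNA pathway, was at 0.175, 0.350 and 0.589 CPM (3, 6 and 9 counts) under valproic acid, 0.705, 1.21 and 0.825 CPM under poly(I:C) and 1.48, 1.35 and 1.19 CPM (25, 24 and 24 counts) in controls (log2 -1.85, SE 0.416, edgeR adjusted p = 0.018). It passed the filter through the groups in which it was higher. Leaving out replicate 1 of the controls (0.066), or replicate 1 (0.067) or 2 (0.056) of valproic acid, ended the call, and DESeq2 gave no adjusted p for it. The adjusted p of Tdrd1 was 0.11 with Y-linked expression, 0.51 with Xist and 0.37 among the libraries without Y-linked counts (log2 -1.70, -1.64 and -1.69). Brdt, the most abundant of the list, was at 2.86, 3.09 and 4.25 CPM under valproic acid, 3.74, 5.27 and 3.89 CPM under poly(I:C) and 4.19, 4.06 and 3.73 CPM in controls. Sycp1, a synaptonemal complex gene, was at 2.39, 0.699 and 1.83 CPM under valproic acid, 1.30, 2.14 and 1.12 CPM under poly(I:C) and 2.72, 3.27 and 2.49 CPM in controls. In the comparison of poly(I:C) with control edgeR and DESeq2 called 0 of the list, with 1 at an unadjusted p under 0.05. Between the exposures they called 0, with 2 at that threshold. Of all tested genes 12% and 16.6% passed it in these 2 comparisons.

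**Figure D5:**
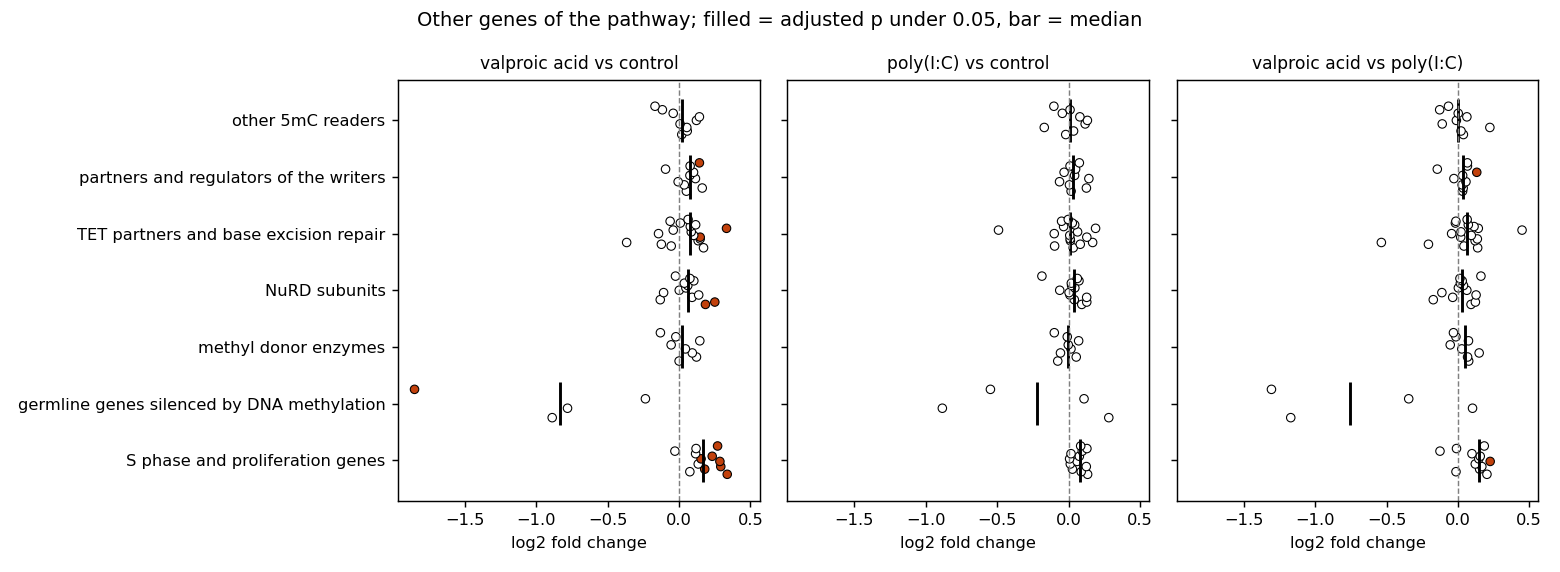
Log2 fold change of each tested gene in 7 lists around the members (points) and the list median (bar), in the 3 comparisons, first-named group over second. Filled points have an edgeR adjusted p under 0.05. The S phase list under valproic acid holds 7 of 12 filled, against 2 to 6 called in the fits without 1 library, and no point is filled for poly(I:C) against control.

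Outside these lists, the genes whose log2 CPM profile over the 9 libraries lay nearest to that of Uhrf1, among 13535 searched, were Rplp0, a ribosomal stalk protein, Tspan18, a tetraspanin, and Akap13, a kinase anchor. Their root mean square distances were 0.0278, 0.0322 and 0.0355 on the log2 scale, against a range of 0.394 for Uhrf1 itself. Reads of Rplp0 may be shared with its processed copies. Nearest to Mbd3 were Idh3g (0.0274), a subunit of the citric acid cycle enzyme isocitrate dehydrogenase encoded on chromosome X, Farsa (0.0281), a phenylalanyl-tRNA synthetase subunit, and Slc25a3 (0.0286), the mitochondrial phosphate carrier, against a range of 0.279 for Mbd3. Between the lists, no gene of the S phase set was among the 3 nearest to Uhrf1, and no NuRD gene among the 3 nearest to Mbd3. Only 3 places were filled from 13535 genes, so this does not show how closely those lists followed either member.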

How the data were processed

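Total RNA was depleted of ribosomal RNA and sequenced, per the labels. The authors deposited raw read counts per Ensembl gene, used as deposited. Per the submitters' processing notes the aligner was HISAT2 and the build GRCm39 (mm39). The sources used here name no counter, strand setting or annotation, so overlapping antisense genes cannot be told apart. Among the members other genes' exons cover at most 0.799% (Dnmt3a). Symbols and exon lengths came from GENCODE M21. No library copied another of its group (chi-square of their counts over its degrees of freedom at least 3.95).

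The 17171 genes that passed edgeR 4.0.16's filterByExpr (a minimum of 10 counts, 15 in total) were scaled by TMM factors (0.977 to 1.02) and fitted over all 9 libraries with a mean per group. Pairs of groups were compared by the two-sided quasi-likelihood F-test, with Benjamini-Hochberg adjusted p under 0.05 as a call. Intervals use each gene's SE and total degrees of freedom. Log2 profiles use a prior count of 2. R was 4.3.3 and DESeq2 1.42.0. The fit was tested on simulated data.

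All 9 members were named. Each of 7 lists gave its called genes, up to 4 by adjusted p, or else its 2 highest by mean CPM, and for each called member the 3 nearest profiles among genes of at least 1 CPM. Other genes were named after their values were seen. A gene that this rule names among the other readers is not reported here. Members and lists were chosen with earlier results of these data known. Alternatives were other size factors, other filters, DESeq2, fits of only the 6 libraries compared, a replicate block, Y-linked expression or Xist as covariates, library sizes that omit globin, mitochondrial and rRNA genes, and each library left out. Fits within libraries with or without Y-linked counts were added after the data were seen.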

Additional observations from a re-analysis of the deposited data

How the results depend on the processing

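Calls over all genes for valproic acid against control (1090) numbered 1661 with no filter, 277 with Y-linked expression and 19 with Xist as a covariate, 71 among libraries without Y-linked counts and 467 to 789 without 1 library. For poly(I:C) against control (92) they were 464 with no filter, 170 by DESeq2, 43 with Xist, 41 among libraries without Y-linked counts (1 per arm, assumed to vary like the valproic acid libraries), 60 among those with them, and 38 to 63 without 1 library. For valproic acid against poly(I:C) (445) they were 1057 with no filter, 111 with Y-linked expression, 39 with Xist, 37 among libraries without Y-linked counts and 112 to 294 without 1 library. The 2 members called for valproic acid against control became 1 with Y-linked expression, 0 with Xist, 0 among libraries without Y-linked counts and 1 to 2 without 1 library. Under poly(I:C) the count stayed 0 in every alternative. Against poly(I:C) it was 1 (Mbd3) with no filter, by DESeq2 and with only the 6 libraries compared. The causes were not tested. Of 441 member values under alternatives, 412 kept direction and side of the threshold, 8 lost a call, 3 gained a call and 18 changed sign, all 18 from values that were not called. Those were Mbd2 for valproic acid against control with Xist (0.0052). For poly(I:C) against control they were Dnmt3a with no filter (-0.0012), with Xist (-0.021) and among libraries with Y-linked counts (-0.014), Mbd2 with Xist (0.0066), and, among libraries without Y-linked counts, Tet1 (-0.018), Tet2 (-0.0064) and Mbd3 (-0.0049). For valproic acid against poly(I:C) it was Tet3 among libraries without Y-linked counts (-0.0014). The rest came from leaving out 1 library, with ranges for poly(I:C) against control of -0.021 to 0.028 (Dnmt3a), -0.10 to 0.010 (Dnmt3b), -0.063 to 0.0062 (Mbd2) and -0.015 to 0.060 (Mbd3), and between the exposures of -0.044 to 0.025 (Dnmt1) and -0.0073 to 0.16 (Tet1). Correlations of deviations from group means were -0.0416 to 0.131 for same-numbered libraries and -0.0906 to 0.0483 for others. The highest joined control replicate 3 and poly(I:C) replicate 3. No clear pairing by number was seen, but 3 libraries per group are too few to exclude it. The replicate block gave 912, 88 and 340 calls over all genes for valproic acid and poly(I:C) against control and valproic acid against poly(I:C), and changed no member call. With 3 libraries per group, differences near 1.1-fold were at the edge of what could be called.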
